A study of Mus musculus with 25 samples.

Results

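The chromatin of mouse retinal progenitor cells was compared between the last day before birth and the day of birth. The comparison rests on 4 ATAC-seq libraries, 2 from embryonic day 18 (E18) and 2 from postnatal day 0 (P0), out of 13 ATAC-seq libraries and 25 libraries in all. They were chosen by label: the GFP+ ATAC-seq columns of these 2 ages. All came from retinal cells of CD1 mice. Cells were sorted by green fluorescent protein (GFP), and the labels call the GFP+ cells retinal progenitor cells. Neither the reporter that drives GFP nor whether replicates are separate animals or litters is named, so p-values measure the spread between these libraries, which may be technical. No genotype or treatment is given for any group. ATAC-seq of GFP+ cells is also given at E10 (1 library), E12.5, E14, E16.5 and P2 (2 each), and RNA-seq of GFP+ cells at E18 and P2 (2 each). No P0 RNA library is analysed here.

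Retinal progenitors are dividing cells that give rise to all neurons of the retina and to its Müller glia in an overlapping order. Ganglion, horizontal and cone cells are born mainly before birth, and most rods, bipolar cells and Müller glia around and after birth. ATAC-seq counts insertions of a transposase, which enters DNA where it is not packed into nucleosomes, so that promoters and enhancers in use usually carry high counts.

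Counts were summed in 3 ways. A region is the 10 kb around a transcript start, a start is the central 800 bp of that region, and a window is 200 bp of it. A level is given in CPM, the count per 1000000 counts, after scaling of libraries, and a difference is the log2 fold change of P0 over E18 with its standard error (SE), positive where P0 was higher. A feature was called at a Benjamini-Hochberg adjusted p below 0.05 in the quasi-likelihood test of edgeR, fitted over all 13 libraries. Region counts were 41299614 and 94686369 in the E18 libraries and 22637847 and 11179094 in the P0 libraries. The mean count at starts over that at the region edges was 25.8 and 25.03 at E18 and 27.8 and 28.5 at P0, so the shallower P0 libraries were also slightly more concentrated at starts. Counts on Y-linked genes made up 47.8 and 38.1 of each 1000000 exon counts at E18 and 18.8 and 19.0 at P0, and the part of the sex of the animals in any result was not tested. The P2 replicates lay far apart (a chi-square of 71.8 per degree of freedom between them over regions, against 6.71 at E18 and 3.46 at P0), and they widen the spread that the fit shares. The main counts are therefore given with those of the fit without both P2 libraries, an alternative chosen after seeing the data.

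The sequences of 3 promoters and of 1 microRNA belong to loci whose chromatin rose at birth, and the promoters are shown because they hold a motif counted below. The promoters of Arr3, Rlbp1, Ptgds, Rab17, Commd9, Ttyh1, Aqp1 and Entpd2, looked up in the same way, hold none. Each promoter runs from 250 bases before to 50 bases after the gene start, and capitals mark TAATCC or its reverse complement, the letters that the photoreceptor homeodomain factors CRX and OTX2 are known to bind. RefSeq sequences of GRCm38.p6 were matched by symbol, while the counts are on mm9, so the 2 starts were not compared by position. Rbp3 lies at chr14:33953753-33954052 on the plus strand, Crx at chr7:15879906-15880205 on the minus strand and Sag at chr1:87803430-87803729 on the plus strand.
Rbp3: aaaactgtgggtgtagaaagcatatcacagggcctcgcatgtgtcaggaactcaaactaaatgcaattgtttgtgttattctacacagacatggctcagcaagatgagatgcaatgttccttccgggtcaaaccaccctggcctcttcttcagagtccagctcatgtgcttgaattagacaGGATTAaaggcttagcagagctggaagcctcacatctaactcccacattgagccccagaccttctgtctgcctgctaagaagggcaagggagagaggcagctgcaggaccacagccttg
Crx: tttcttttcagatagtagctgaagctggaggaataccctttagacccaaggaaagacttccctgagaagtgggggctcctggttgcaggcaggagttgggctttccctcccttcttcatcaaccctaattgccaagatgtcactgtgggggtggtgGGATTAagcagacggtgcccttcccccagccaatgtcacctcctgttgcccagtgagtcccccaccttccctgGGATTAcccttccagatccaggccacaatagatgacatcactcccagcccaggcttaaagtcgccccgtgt
Sag: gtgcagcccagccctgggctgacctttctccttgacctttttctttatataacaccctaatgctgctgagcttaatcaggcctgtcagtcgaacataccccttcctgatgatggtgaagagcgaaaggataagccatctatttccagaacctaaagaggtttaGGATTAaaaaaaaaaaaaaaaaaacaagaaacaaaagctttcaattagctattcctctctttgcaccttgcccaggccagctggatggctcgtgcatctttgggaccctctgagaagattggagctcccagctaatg
The motif began 69 bases before the start in Rbp3, 94 and 21 bases before it in Crx, and 87 bases before it in Sag. For miR-9, a microRNA that promotes the passage of neural progenitors to later states, capitals mark the seed (bases 2 to 8), and the sequences lie on chr3 at 88215613 to 88215635 (5p) and 88215652 to 88215673 (3p).
miR-9-5p: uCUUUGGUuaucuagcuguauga
miR-9-3p: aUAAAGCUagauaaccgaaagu

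Chromatin around starts was called as changed at few places across birth. Most calls were higher at P0, a balance that turned at starts with library totals and with offsets by level (84 higher against 105 lower, and 249 against 298). Of 28048 regions tested, 43 rose from E18 to P0 (0.153%) and 2 fell (0.00713%), with a median log2 fold change of -0.01 over all. The regions that rose held 41 gene symbols at 37 separate places. They lay between 0.58 and 1.88 in log2 fold change, with a median of 0.81. Without both P2 libraries 1081 regions rose (3.86%) and 383 fell (1.37%), and all 43 and both of the 2 were among them. Leaving out E18 replicate 1, E18 replicate 2, P0 replicate 1 or P0 replicate 2 left 7, 5, 2 and 6 regions called, all higher. The share that fell depended on scaling. With library totals 62 regions rose and 43 fell, and with offsets that remove a trend with level 246 rose and 220 fell. The trend itself was a lower P0 level at weak regions: the median log2 fold change was -0.48 over the 7012 regions with the lowest counts, at or below 4.73 CPM, and 0.06 over the 7012 with the highest.

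With all 13 libraries starts gave more calls than whole regions, an order that turned in some alternatives. Without both P2 libraries 1174 starts and 1464 regions were called, and after thinning to equal depth 37 and 114. Of 27591 starts tested, 75 rose (0.272%) and 16 fell (0.058%). Without both P2 libraries 705 rose (2.56%) and 469 fell (1.7%), again with all 75 and all 16 among them. Leaving out each E18 library in turn left 28 and 12 starts called, without P0 replicate 1 there were 3 and without P0 replicate 2 there were 15. Thinning every library to equal depth gave 19 higher and 18 lower starts, and a filter on a mean count of 50 gave 134 and 209. Of the symbols that rose, 12 were called both as a region and as a start: Cldn5, Entpd2, Gpr62, Hr, Il17b, Nckap5, Olfm1, Prr5l, Tacr1, Mir124a-3, Mir7662 and the clone 9430041J12Rik.

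**Figure D1:**
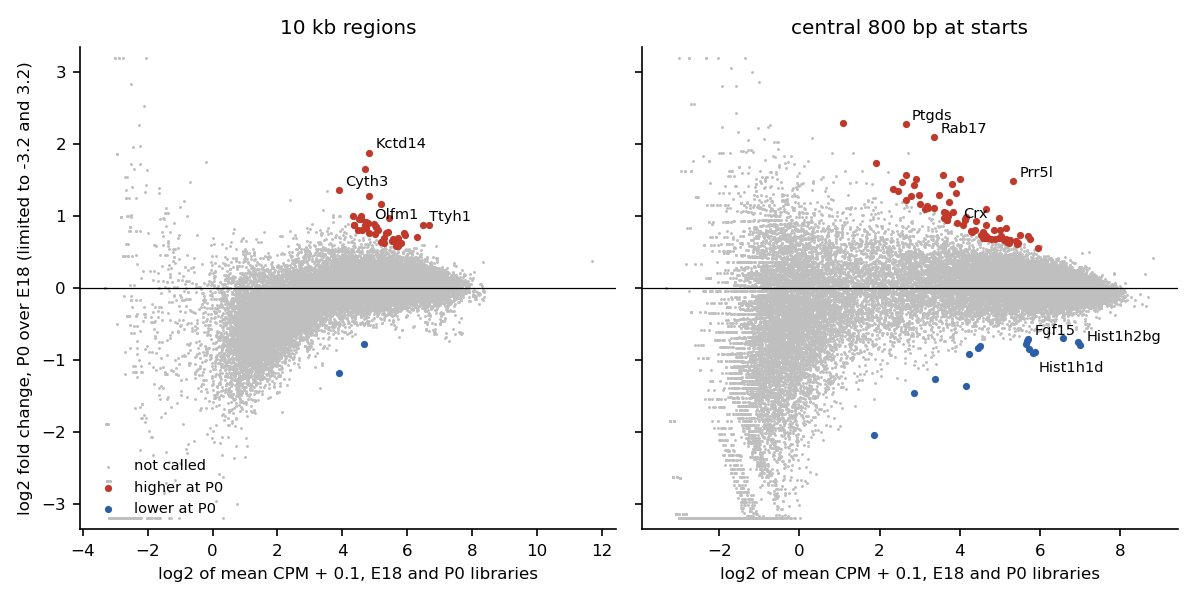
Log2 fold change of P0 over E18 (y axis, with points beyond the limits drawn at the edge) against the log2 of the mean CPM of the 4 libraries plus 0.1 (x axis) for 28048 regions (left) and 27591 starts (right). Each point is a feature; red points rose and blue points fell at an adjusted p below 0.05, and the cloud bends below 0 at low counts.

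The region of Kctd14, a gene for a protein with a potassium channel tetramerisation domain, showed the largest rise among named regions. It read 11.5 and 12.6 CPM at E18 and 46.5 and 42.6 CPM at P0, and 10.1 and 10.7 CPM earlier, at E16.5. Both P0 libraries were above every E18 and E16.5 library, and the log2 fold change was 1.88 with an SE of 0.18 (adjusted p = 9.34e-07). Its call held without each of the 4 libraries in turn. The 4 windows of Kctd14 that were called lay at -4700, -4500, -4300 and -4100 bp from the start, outside the promoter. The window at -4500 bp (chr7:104595244-104595443, mm9) read 1.34 and 1.91 CPM at E18 and 13.5 and 10.1 CPM at P0 in the fit of windows, a log2 fold change of 2.82 (SE 0.31, adjusted p = 0.000389). Kctd14 RNA was at or below 0.0734 FPKM at E18 and at 1.12 and 0.582 FPKM at P2.

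Cyth3, which encodes an exchange factor for ARF GTPases, had a peak of this kind 1100 bp downstream of its start. Its region read 8.18 and 8.56 CPM at E18 and 22.9 and 19.5 CPM at P0 (log2 1.36, SE 0.24, adjusted p = 0.00917). In the leading window the level went from 1.43 and 1.32 CPM to 7.19 and 5.63 CPM (log2 2.28, adjusted p = 0.00195). Cyth3 RNA did not follow that direction: it read 19.7 and 24.7 FPKM at E18 and 14.6 and 16.6 FPKM at P2.

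Olfm1, which encodes a secreted glycoprotein of neurons, opened both at its start and beside it. The region read 18.4 and 20.1 CPM at E18 against 36.8 and 35.5 CPM at P0 (log2 0.90, SE 0.15, adjusted p = 0.00397). Its leading window lay 900 bp downstream of the start and rose from 0.915 and 0.839 CPM to 4.70 and 4.79 CPM (log2 2.45, SE 0.32, adjusted p = 0.00347). Here the RNA was also higher at the later age, 45.3 and 47.3 FPKM at E18 and 84.2 and 86.6 FPKM at P2.

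Ttyh1, a chloride channel gene of neural progenitors and glia, has a region that overlaps that of the clone 9430041J12Rik, and the 2 calls are not separate. The region of Ttyh1 read 59.9 and 66.4 CPM at E18 and 118.5 and 114.6 CPM at P0 (log2 0.88, SE 0.14, adjusted p = 0.00224). Its P2 libraries read 142.5 and 117.1 CPM, and its RNA was 76.6 and 84.3 FPKM at E18 and 269.6 and 228.2 FPKM at P2. Entpd2, an ectonucleotidase gene of glia, rose from 14.8 and 17.2 CPM to 34.8 and 28.8 CPM (a 1.999-fold rise, log2 SE 0.18, adjusted p = 0.00987), with RNA at 1.19 and 0.716 FPKM at E18 and 33.04 and 18.85 FPKM at P2. These 2 genes had higher chromatin levels at every P0 and P2 library than at either E18 library.

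The other named regions that rose were Kcnn4 (a calcium-activated potassium channel; log2 1.01), Lncppara (a non-coding RNA; 0.96; its region overlaps those of Mirlet7c-2 and Mirlet7b), Syt8 (a synaptotagmin; 0.96), Scx (a transcription factor of tendon; 0.92) and Apoc1 (an apolipoprotein; 0.88). None overlapped between the ages, but the rule for names requires this. It held for all 45 called regions and for 57.7% of all regions tested. RNA of Syt8 was listed at 0 in all 4 RNA libraries and that of Scx was at most 0.493 FPKM, so open chromatin within 10 kb of a start did not always go with RNA of that gene. A single region of Vegfa, the main growth factor of blood vessels, was called as well (chr17:46157112-46167111, mm9). It read 33.5 and 37.4 CPM against 57.7 and 54.9 CPM (log2 0.66, SE 0.13, adjusted p = 0.023). Rd3, which encodes an inhibitor of photoreceptor guanylate cyclase, rose from 29.6 and 29.0 CPM to 46.2 and 55.9 CPM (log2 0.77, SE 0.13, adjusted p = 0.00781).

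MicroRNA genes were present among the regions that rose, and their share among all microRNA regions was not counted. The largest rise among them was that of Mir7662, from 19.7 and 24.2 CPM to 50.2 and 50.5 CPM (log2 1.16, adjusted p = 7.79e-05). At starts Mir344c fell, from 5.22 and 5.77 CPM to 0.967 and 2.15 CPM (log2 -2.04, adjusted p = 0.0363), with a mean count of 10.5 at P0. The region of Mir9-1, whose mature sequences are printed above, read 17.1 and 18.8 CPM at E18 and 32.4 and 35.3 CPM at P0 (log2 0.88, SE 0.16, adjusted p = 0.0114). The region of Mir3093 overlaps it and shares its counts. Mir124a-3, a gene for miR-124 of differentiating neurons, read 57.1 and 62.9 CPM against 101.8 and 93.2 CPM (log2 0.70, SE 0.15, adjusted p = 0.0389). The regions of Mirlet7c-2 and Mirlet7b, which overlap, stood just outside the threshold at log2 fold changes of 0.62 and 0.63 with an adjusted p of 0.0529 and 0.0541, and the last called region, of the clone 6530403H02Rik, stood just inside at 0.0464. The deposited RNA values hold no row for Mir9-1.

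The 2 regions that fell both belong to clones. The region of 4930481A15Rik read 19.8 and 20.7 CPM at E18 and 8.62 and 9.66 CPM at P0 (log2 -1.18, SE 0.24, adjusted p = 0.0253), and that of 6530403H02Rik 31.9 and 32.3 CPM against 18.4 and 19.5 CPM (log2 -0.78, SE 0.17). They are named here after their values were seen, since the rule for names leaves clones out.

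**Figure D2:**
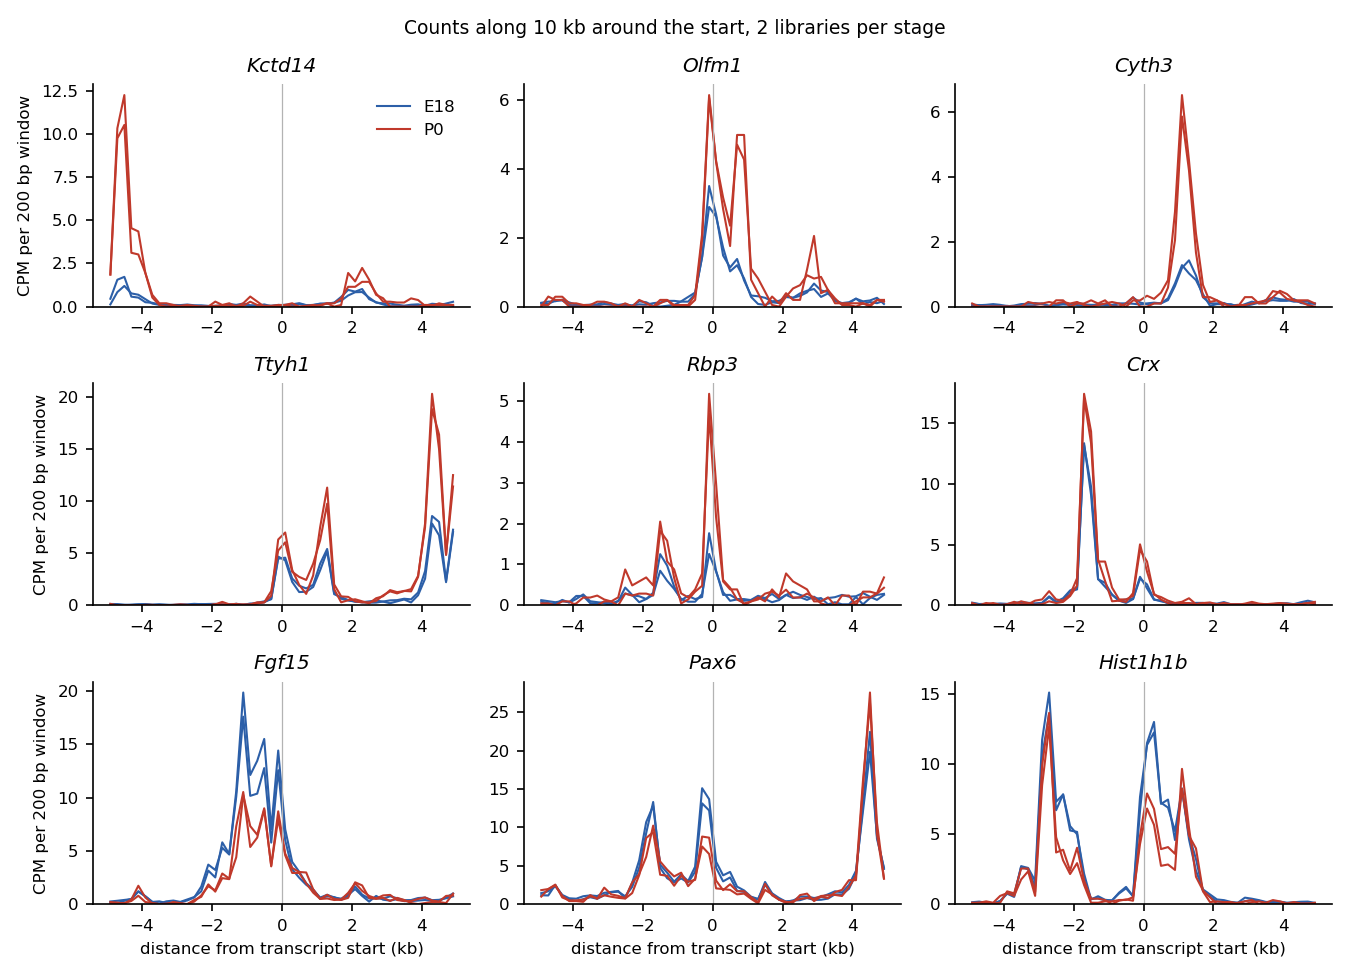
CPM in each 200 bp window (y axis) by distance from the transcript start in kb (x axis, negative upstream), with a blue line for each E18 library and a red line for each P0 library. These CPM are scaled as regions or starts are, so they differ slightly from window values in the text. The difference sits in narrow peaks: 4500 bp upstream in Kctd14, 1100 bp downstream in Cyth3 and at the start in Rbp3, while Fgf15, Pax6 and Hist1h1b show lower P0 peaks near the start.

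Some photoreceptor genes rose at their starts, while 15 of 17 rod genes and 10 of 11 cone genes tested were not called. Rbp3, which encodes the retinoid carrier of the space around photoreceptors, read 6.60 and 5.77 CPM at E18 and 18.6 and 16.4 CPM at P0, a 2.97-fold rise (log2 1.57, SE 0.23, adjusted p = 1.40e-05). No earlier library of E12.5 to E16.5 was above 7.29 CPM. Crx, the transcription factor that drives photoreceptor genes, went from 10.2 and 10.6 CPM to 19.7 CPM in both P0 libraries (log2 0.91, SE 0.21, adjusted p = 0.0194). Sag, the arrestin of rods, went from 5.61 and 5.17 CPM to 9.86 and 15.2 CPM (log2 1.14, SE 0.28, adjusted p = 0.0347). Arr3, the arrestin of cones, had few reads and went from 0.495 and 0.766 CPM to 3.29 and 3.52 CPM (log2 2.29, SE 0.57, adjusted p = 0.0434). In bulk libraries a change in the share of a cell type and a change within its cells cannot be told apart. None of these 4 starts overlapped between the ages, which held for 48.8% of all starts tested and for all 91 called, and the calls of Sag and Arr3 were near the threshold.

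The starts of further genes of photoreceptors rose beside them: Cacna2d4, a calcium channel subunit of photoreceptor synapses (7.97 and 8.95 CPM to 22.3 and 20.3 CPM, log2 1.32), Gnb3, the transducin beta subunit of cones (log2 0.67), and Ano2, a chloride channel of photoreceptor synapses (log2 0.95). They are set together here after their values were seen. RNA of Rbp3, Crx and Sag was higher at P2 than at E18. It was 6.94 and 6.79 FPKM against 46.8 and 24.3 FPKM for Rbp3, 50.5 and 55.9 FPKM against 181.6 and 105.2 FPKM for Crx, and 0.252 and 0.627 FPKM against 6.95 and 5.83 FPKM for Sag. RNA of Arr3 stayed at or below 0.162 FPKM in all 4 libraries. P2 replicate 1 had the higher value for Rbp3, Crx and Sag.

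Of the 18 rod genes listed, 17 were tested. Crx and Sag rose and none fell, against 60 of 23902 symbols that rose in all. A positive value was found for 13 of the 17, against 11046 of the 23902, and the median log2 fold change was 0.46, against -0.02. Without both P2 libraries 4 of the 17 rose, against 607 of the 23902. Summed over the list, starts read 134.2 and 129.1 CPM at E18 and 158.3 and 184.8 CPM at P0. The median start was low, at 1.15 and 1.36 CPM at E18 and 1.84 and 1.95 CPM at P0. In regions none of the 17 was called, 12 had a positive value and the median log2 fold change was 0.21. Rod RNA summed to 180.8 and 198.9 FPKM at E18 and 533.1 and 386.0 FPKM at P2. The labels call these cells progenitors, and the part of rod precursors that kept GFP in these values was not tested. Of the 11 cone genes Arr3 rose, 8 had a positive value and the median was 0.28. Nrl, the factor that sets rod fate, was not called at its start (5.11 and 5.65 CPM against 7.54 and 7.03 CPM, log2 0.43, adjusted p = 0.864).

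Genes of late progenitors and Müller glia were mixed. Rlbp1, which encodes the retinaldehyde-binding protein of Müller glia, rose at its start from 17.5 and 18.1 CPM to 34.7 and 29.5 CPM (log2 0.88, SE 0.17, adjusted p = 0.00169). The level at this start was 10.9 and 11.3 CPM at E16.5 and 48.4 and 47.7 CPM at P2, and RNA was 14.6 and 15.4 FPKM at E18 and 187.7 and 79.5 FPKM at P2. At starts Rlbp1 was the one call among 16 late progenitor genes and among 14 Müller glia genes, against 60 of 23902 symbols that rose in all. The medians of the 2 lists at starts were 0.08 and 0.02. In regions neither list had a call. There 9 of the 16 and 11 of the 14 had a positive value, against 11637 of 24208 symbols, and the medians were 0.04 and 0.15, against -0.01. Kcnj10, the inward rectifier of Müller glia, read 53.2 and 50.1 CPM against 70.6 and 79.5 CPM in its region (log2 0.53, adjusted p = 0.092). The NFI factors, which are known to be needed for late-born fates, did not pass the test: Nfix had a log2 fold change of 0.40 in its region (adjusted p = 0.452), Nfib 0.15 and Nfia -0.12. At starts Nfix had 0.35, while Nfib and Nfia had the other sign, at -0.18 and 0.08. Without both P2 libraries Kcnj10 and Nfix were called in regions.

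Among other starts that rose, Ptgds, which encodes prostaglandin D synthase, changed most of those with a mean count of at least 50 at P0. It read 2.09 and 2.23 CPM at E18 and 11.3 and 9.18 CPM at P0, a 4.84-fold rise (log2 2.28, SE 0.34, adjusted p = 1.56e-05), and went on to 22.2 and 32.4 CPM at P2. Rab17, a GTPase gene of membrane traffic, rose from 4.51 and 3.80 CPM to 19.2 and 13.3 CPM (log2 2.096, SE 0.26, adjusted p = 6.25e-08). Prr5l, a gene for a partner of the kinase complex mTORC2, rose from 21.2 and 21.5 CPM to 62.1 and 56.8 CPM (log2 1.49, SE 0.14, adjusted p = 2.02e-12). The start of Prr5l lies in the same open stretch as the region of its neighbour Commd9, so the calls of the 2 genes are not separate. Dglucy and Chadl complete the highest named starts, at log2 fold changes of 1.57 and 1.48. Omg, with 1.81 and 1.63 CPM against 5.70 and 5.47 CPM (log2 1.74, adjusted p = 0.0366), had a mean count of 43.5 at P0, below the limit of 50 for names, and is given after its values were seen.

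Ptgds, Rab17 and several other starts that rose were also high in the single E10 library, at 15.2 CPM for Ptgds. That library had a start enrichment of 6.40, the lowest of the 13, so its reads were spread more evenly over regions.

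**Figure D3:**
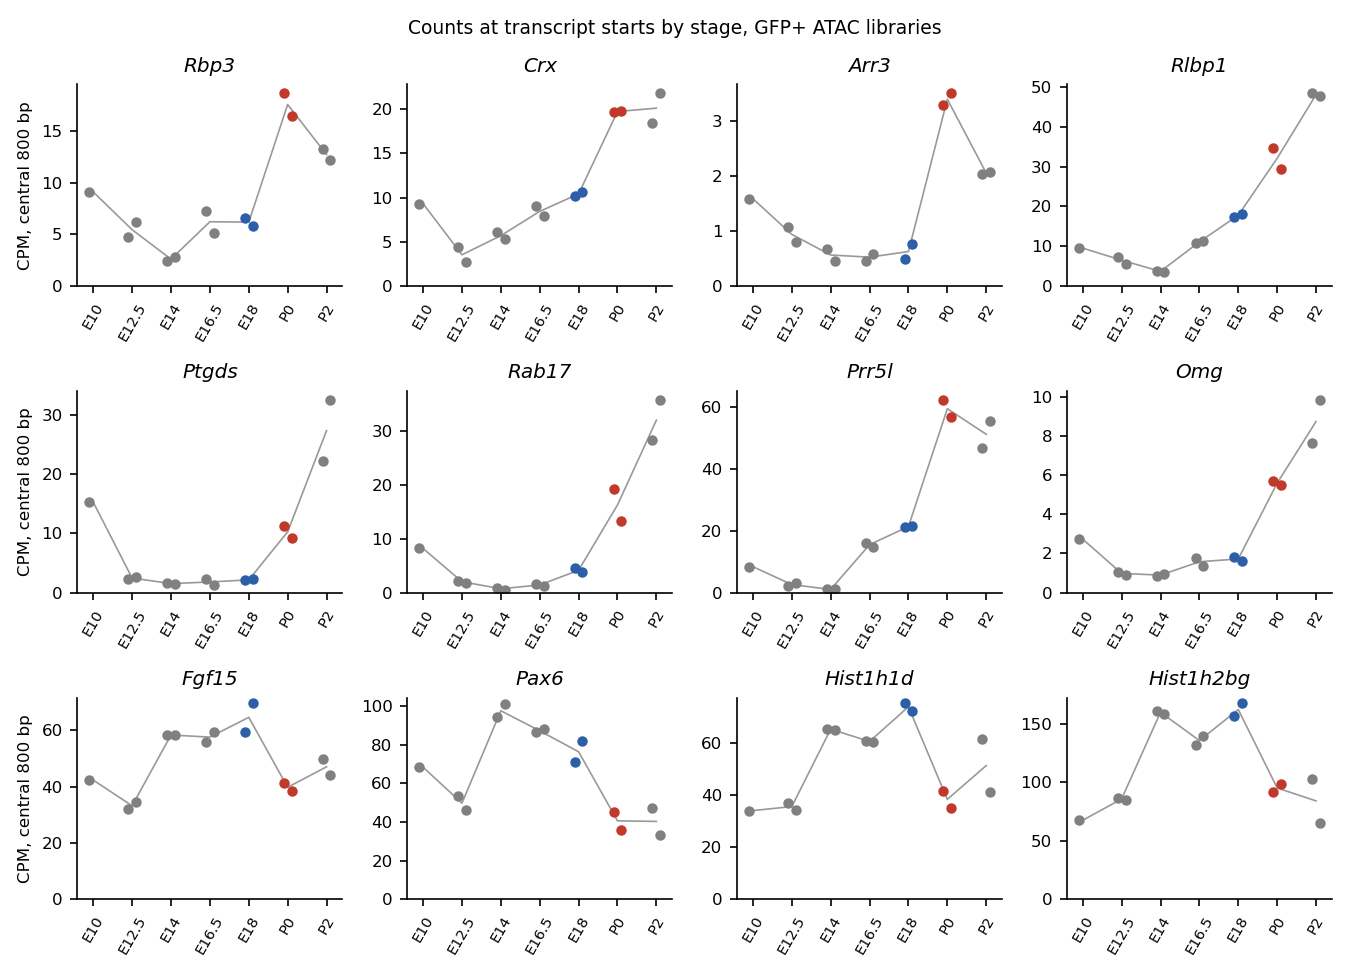
CPM in the central 800 bp at 12 starts (y axis) by stage (x axis), 1 point per library with E18 in blue, P0 in red and other stages in grey; the line joins stage means. Rbp3, Crx, Arr3 and Rlbp1 are higher in both P0 libraries than in both E18 libraries, and Fgf15, Pax6 and the 2 histone starts are lower.

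Of the 16 starts that fell, 7 belong to histone genes of the cluster on chromosome 13. Hist1h1d, a linker histone gene, read 75.5 and 72.5 CPM at E18 and 41.7 and 35.2 CPM at P0 (log2 -0.90, SE 0.17, adjusted p = 0.00169). Hist1h1b read 68.3 and 68.4 CPM against 40.0 and 34.6 CPM (log2 -0.84), and Hist1h2bg 157.0 and 167.4 CPM against 91.6 and 98.6 CPM (log2 -0.79, adjusted p = 0.0279). The others were Hist1h2ab, Hist1h2ae, Hist1h1c and Hist1h4i. The starts of Hist1h2ae and Hist1h2bg overlap and share counts. At none of the 7 did the ages overlap, as at all 91 called starts.

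Histone genes of this kind are transcribed in S phase, when DNA is copied. All 65 tested starts of such genes were then counted, a list chosen after these values were seen. Of them 7 fell and none rose, against 15 of 23902 symbols that fell in all. A positive value was found for 5 of the 65, against 11046 of the 23902, and the median log2 fold change was -0.40, against -0.02 over all symbols. Under library totals 23 fell, with offsets by level 34 and without both P2 libraries 38. Without E18 replicate 1 there were 2, without E18 replicate 2 there was 1, and without P0 replicate 1 or P0 replicate 2 there was none. The P2 libraries split at these starts: Hist1h2bg read 103.1 and 65.0 CPM. None of the 69 regions of 10 kb at such genes was called, with a median of -0.46, and without both P2 libraries 43 fell. Many of these genes are near-identical copies packed closely, so how reads were shared among them is uncertain. The S phase list, of 25 replication and licensing genes, had no call, 12 positive values and a median of 0.00, and the G2/M list, of 25 mitotic genes, none, 9 and -0.03.

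Histone RNA differed far more than the chromatin did. Hist1h1d was at 1031 and 1351 FPKM at E18 and 0.845 and 1.43 FPKM at P2. Most such RNAs lack a poly(A) tail, and the labels name both polyA RNA as the molecule and a total RNA kit for every library. The part of library preparation in this difference was not tested.

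Fgf15, a growth factor of retinal progenitors, fell at its start, from 59.4 and 69.7 CPM to 41.2 and 38.3 CPM (log2 -0.71, SE 0.16, adjusted p = 0.0194). Its region read 128.1 and 146.5 CPM against 91.1 and 85.3 CPM (log2 -0.64, adjusted p = 0.345). RNA of Fgf15 was 412.3 and 435.7 FPKM at E18 and 74.6 and 171.4 FPKM at P2. One of the starts of Pax6, a homeodomain factor kept by progenitors and some neurons, fell from 71.1 and 81.8 CPM to 45.1 and 36.1 CPM (chr2:105522220-105523019, mm9; log2 -0.89, SE 0.18, adjusted p = 0.00597). The Pax6 start with the most counts differed by -0.04 (SE 0.17), a value near 0, and the difference between the 2 starts was not tested. Kcnip4, a modulator of potassium channels, and Stmn4, a stathmin of neurons, also fell (log2 -0.92 and -0.81).

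Rax, Sox2 and Ccnd1, which also mark progenitors, were not called. As a check of the labelled cell type in RNA, Rax was at 232.2 and 256.6 FPKM at E18 and 187.9 and 200.5 FPKM at P2. Ccnd1 was at 1274 and 1378 FPKM at E18 and 730.0 and 1030 FPKM at P2. Sox2 was at 200.9 and 204.5 FPKM against 106 and 133.2 FPKM, and Hes1 at 333.4 and 361.4 FPKM against 102.6 and 166.3 FPKM. Lhx2 went the other way, at 123.6 and 143.5 FPKM against 164.5 and 188.8 FPKM. These RNAs were present at both ages but not steady, and cells without GFP were not set beside them. In chromatin, the region of Sox2 read 150.8 and 157.7 CPM at E18 and 146.7 and 147.4 CPM at P0, and that of Rax 100.4 and 108.4 CPM against 100.7 and 112.8 CPM. In the lists each gene stands for its start with the highest mean CPM over the 13 libraries, so the Pax6 start that fell is not counted there. So counted, Fgf15 was the one call of 15 core progenitor genes, and 2 of the 15 had a positive value, against 11046 of 23902 over all symbols, with a median of -0.10. Hes1, a Notch target, had a log2 fold change of -0.38 at its start, called without both P2 libraries only (adjusted p = 0.581 with all 13). Atoh7, the factor for ganglion cells, was at 42.2 and 43.8 CPM in its region against 31.9 and 36.9 CPM (log2 -0.36, adjusted p = 0.792). At the start of Atoh7 the log2 fold change was -0.16. Neurog2, a proneural factor, had a log2 fold change of -0.49 at its start (adjusted p = 0.264).

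Most of the 30 gene lists had no call. In regions 3 lists had one (Cldn5 among endothelial genes, Ttr among pigment epithelium genes and Hr among hormone response genes), and at starts 8 lists did (Fgf15 in 2 progenitor lists, Rlbp1 in the late progenitor and Müller glia lists, and the rod, cone, endothelial and hormone lists). Over all symbols 36 of 24208 rose and 2 fell in regions, and 60 of 23902 rose and 15 fell at starts. Without both P2 libraries 23 and 18 lists had a call. In that fit 890 of the 24208 symbols rose and 342 fell in regions, and 607 of the 23902 rose and 412 fell at starts. Whether the lists held more calls than other genes was not tested. At starts no member of the Notch, Hedgehog, neurogenic, ganglion, horizontal, amacrine, bipolar or pan-neuronal lists was called. In regions Heyl, a Notch target, came closest in the Notch list, at 23.2 and 24.1 CPM against 35.8 and 36.1 CPM (log2 0.59, adjusted p = 0.107). The start of Heyl read 26.4 and 25.9 CPM against 42.1 and 34.0 CPM (log2 0.59, adjusted p = 0.0811). The heterochronic list, with Lin28a, Lin28b and other genes that time development, had no call, and its median at starts was -0.32 over 10 genes. Hr, a corepressor that thyroid hormone induces, rose in its region from 34.1 and 37.4 CPM to 56.8 and 59.8 CPM (log2 0.68, SE 0.13, adjusted p = 0.0155). It was the one call of 18 genes of the hormone list.

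Markers of most other cells were low in RNA, but not always in chromatin. Of 10 microglia genes none was called, starts summed to 12.4 and 11.0 CPM at E18 and 8.99 and 7.03 CPM at P0, and RNA summed to between 1.45 and 1.78 FPKM. Lens and pigment epithelium RNA summed to at most 3.64 and 1.43 FPKM in any of the 4 libraries. Pigment epithelium starts summed to 157.6 and 134.2 CPM at E18 and 147.4 and 160.5 CPM at P0. Mesenchyme starts summed to 215.8 and 223.2 CPM against 210 and 229.5 CPM, with RNA at most 3.81 FPKM. Astrocyte RNA summed to 4.42 and 3.34 FPKM at E18 and 14.8 and 4.82 FPKM at P2. Endothelial genes were not absent: RNA summed to 155.1 and 158.8 FPKM at E18 and 234.2 and 245.4 FPKM at P2, and starts to 128.6 and 124.3 CPM at E18 and 123.6 and 141.0 CPM at P0. Cldn5, a tight junction gene of endothelium, rose at its start from 8.52 and 9.45 CPM to 18.2 and 20.5 CPM (log2 1.05, SE 0.23, adjusted p = 0.0124) while 4 of 10 endothelial starts had a positive value. The part of endothelial cells in the value of Cldn5 was not tested.

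**Figure D4:**
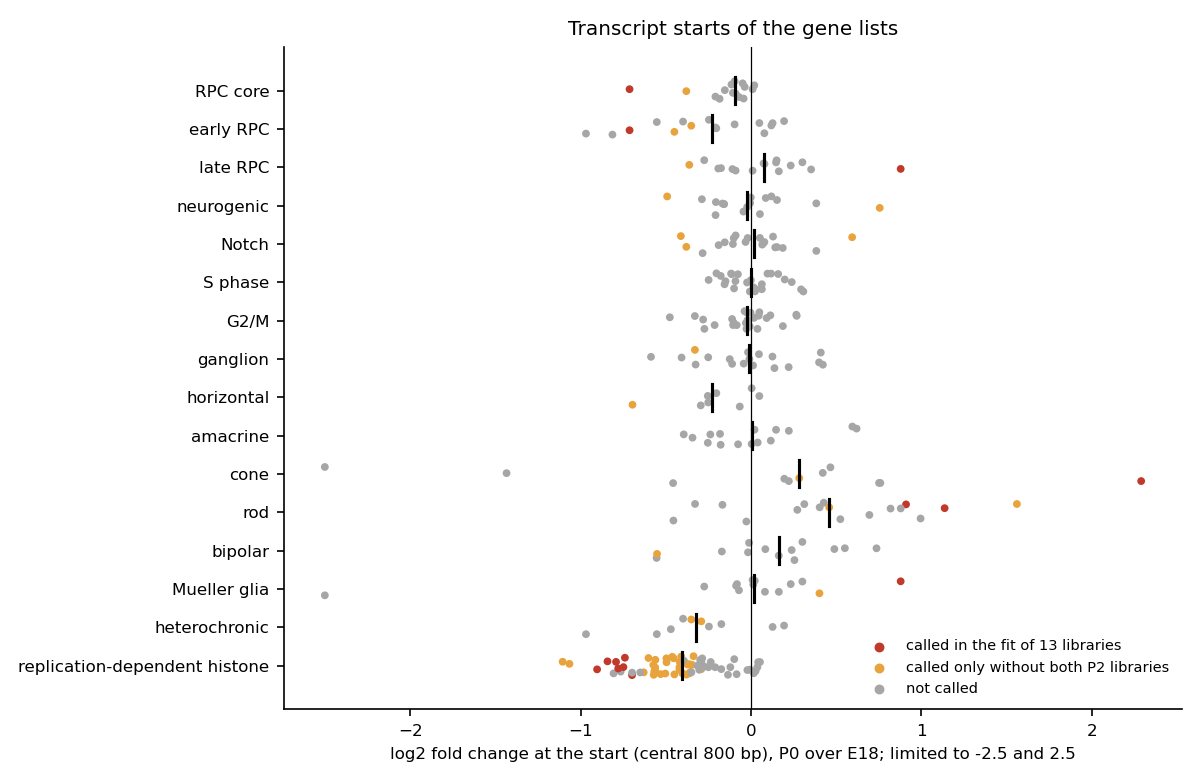
Log2 fold change at the start of each gene (x axis, with points beyond the limits drawn at the edge) for 16 gene lists (y axis), with a black bar at the median; red points were called over 13 libraries and orange points only without both P2 libraries. Rod genes, whose median level was at most 1.95 CPM, have a median of 0.46. Histone genes, added after their values were seen, have a median of -0.40.

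Windows placed some of the changes inside regions. A called window was found for 32 symbols, and 20 of these were not among those that rose as a region or start. Of 1112625 windows tested 51 rose and 1 fell (0.00467% called in all), and 47 of the 52 lay outside the central 800 bp. Library totals gave 550 and 251, and without both P2 libraries 1134 rose and 976 fell. With all 13 libraries 73062 windows had an unadjusted p below 0.05, and only 15029 of these were higher at P0, unlike the balance of the calls. The median log2 fold change over all windows was -0.29. It was -0.03 over the 358961 windows tested after thinning to equal depth. With the E18 and P0 libraries alone it was -0.01 over 298424 windows. The part of depth and low counts in this median was not tested. Leaving out P0 replicate 2 left 12 called, and without E18 replicate 1, E18 replicate 2 or P0 replicate 1 edgeR called none, with 64433, 59165 and 32451 windows at an unadjusted p below 0.05. Outside the central 800 bp, where the rule for names looks, the highest were Gcnt2 (log2 3.25, 4100 bp downstream), Kctd14, Pebp1 (2.62), Gngt2 (2.47), Olfm1 and Abi3 (2.44). The windows of Gngt2, the transducin gamma subunit of cones, and Abi3 cover the same stretch. The window that fell, 900 bp downstream of the start of Hist1h2ac, held 1.69 and 1.49 CPM at E18 and 0.0529 and 0 CPM at P0, where it rests on a mean of 0.5 counts, so no fold is given.

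Exon counts gave little. Of 22097 genes 1 rose (0.00453%), the clone 8030423J24Rik, from 9.52 and 10.1 CPM to 34.9 and 33.1 CPM (log2 1.79, SE 0.27, adjusted p = 0.0337). At an unadjusted p below 0.05 there were 988 genes. Without both P2 libraries 247 rose and 148 fell. Without E18 replicate 1, E18 replicate 2, P0 replicate 1 or P0 replicate 2 edgeR called none, with 684, 501, 217 and 481 genes at an unadjusted p below 0.05.

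P2 was then set against E16.5 at the same features. These 4 libraries do not enter the difference between P0 and E18, but they share its fit and so its spread, and the 2 sets of calls are not independent. In that contrast 10.2% of regions were higher and 12.7% lower, and 9.08% and 11.0% of starts. Of the 43 regions that rose from E18 to P0, 42 were called higher at P2 than at E16.5 and none lower, and of the 75 starts that rose 67 were called higher and none lower. Their median log2 fold changes for P2 over E16.5 were 1.10 and 1.21, against 0.04 and 0.06 over all regions and starts. Of the 2 regions that fell, 6530403H02Rik was called lower and 4930481A15Rik higher (log2 -1.34 and 0.62). Of the 16 starts that fell 10 were called lower and none higher. Of the histone genes among them, Hist1h1d, Hist1h1b and Hist1h4i had values near 0 in that contrast (-0.16, 0.05 and -0.09).

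RNA was compared as a description, since no RNA was measured at P0. Of the 71 symbols that rose at starts, 47 had an RNA value of at least 1 FPKM in an E18 or P2 GFP+ library. A symbol below 1 FPKM at E18, such as Ptgds or Sag, passes this limit only through its P2 value. The reverse holds for a symbol below it at P2, so the limit itself favours a difference. RNA was higher at P2 than at E18 for 41 of the 47 (87.2%), with a median difference of 1.01 in log2(FPKM + 1). Over all tested starts it was higher for 48% of 11979 symbols, with a median of -0.02. For regions that rose the count was 19 of 23. The 6 starts that went the other way included Trim2 (35.6 and 37.8 FPKM against 30.2 and 22.9 FPKM) and Lrrtm2. Among the 16 starts that fell, 11 had such RNA and it was lower at P2 for 9, of which 7 are histone genes.

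**Figure D5:**
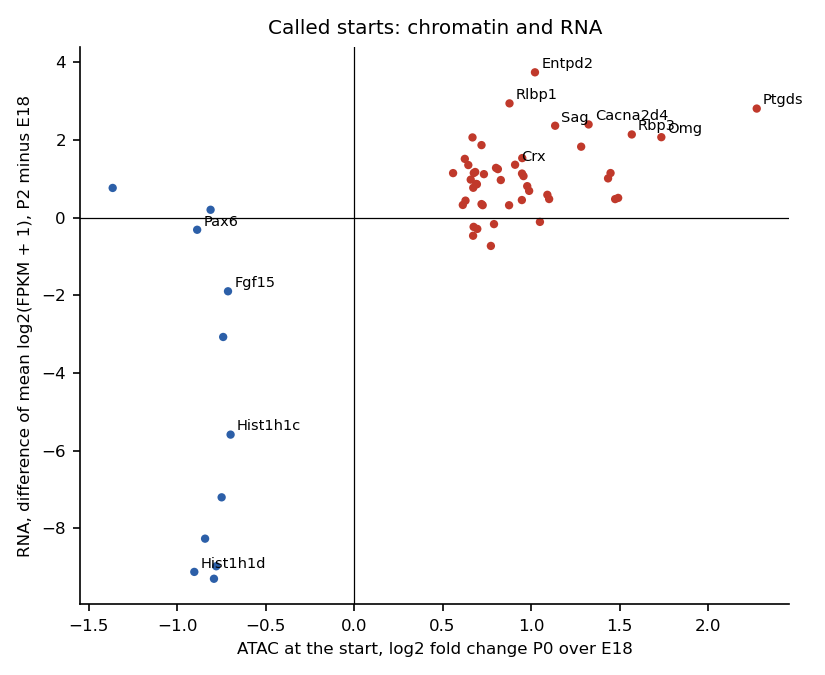
Difference of mean log2(FPKM + 1) between P2 and E18 GFP+ RNA (y axis) against the log2 fold change of ATAC counts at the start, P0 over E18 (x axis), 1 point per symbol called at a start with at least 1 FPKM. Of 47 red points, which rose in chromatin, 41 lie above 0 in RNA. A symbol below 1 FPKM at E18 is drawn only through its P2 value. The blue points below -3 in RNA are histone genes.

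Motif letters were counted in the promoters of the same symbols, in windows of 300 bases and on both strands. Of the 71 symbols that rose at starts 52 matched, with 80 promoters. TAATCC stood in 15 of the 80 (18.8%), against 7.06% of all 32851 promoters. CAGCTG, an E-box letter pattern, stood in 31 (38.8%) against 16.3%, and CAGATG, another, in 15 (18.8%) against 17.2%. GGGCGG, the GC box, stood in 34 (42.5%) against 35.7%, TGANTCA in 5 (6.25%) against 7.81%, and CCCTC in 56 (70.0%) against 66.0%. The NFI palindrome (TTGGC, 5 bases, GCCAA) stood in none, against 0.0365% of all. For regions that rose TAATCC stood in 2 of 35 promoters (5.71%), and CAGCTG in 13 (37.1%). Several promoters of 1 gene share sequence. Of the 16 symbols that fell 4 matched, too few to describe.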

How the data were processed

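ATAC-seq and RNA-seq libraries of sorted CD1 mouse retinal cells were used. The authors deposited whole-number ATAC counts in 200 bp windows (50 to a transcript start) and per gene over exons, on coordinates whose chromosome ends match mm9. Bowtie2, HISAT2, Picard 2.10.7, SAMtools 1.5, featureCounts 1.5.3 and bedtools 2.26.0 are named in the submitters' processing notes, without their roles. The deposited RNA values were read as FPKM from their range, with the depth behind them unknown.

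Counts were summed per 10 kb region and per central 800 bp. Features passing filterByExpr (minimum count 10) were scaled by TMM and tested with the quasi-likelihood test of edgeR 4.0.16 (R 4.3.3), as P0 minus E18 in 1 fit of 13 libraries in 7 stages (6 residual degrees of freedom), with Benjamini-Hochberg adjustment over all features. DESeq2 1.42.0 and limma 3.58.1 (offsets by level) served alternatives. The fit was tested on simulated data. Region counts per library ran from 11179094 to 94686369 for the compared ages, a depth ratio of up to 8.47, and counting error covers only part of the spread.

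Genes were named by rule: the 35 anchors, the 10 highest and lowest called regions, the 6 highest and lowest called starts, windows and exons with no overlap between ages and a mean count of at least 50 (20 for windows, taken outside the central 800 bp) in the higher group, leaving out clones and microRNAs, and up to 4 genes per list with the smallest p. Genes named outside it, such as microRNAs and Vegfa, were chosen after their values were seen. Members and lists were chosen with earlier results of these data known. RNA differences were on log2(FPKM + 1), with no test. Same-numbered E18 and P0 replicates showed correlations of deviations of -0.00021 (regions), 0.00676 (starts) and -0.0146 (exons). Results on some genes are not reported here.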

Additional observations from a re-analysis of the deposited data

How the results depend on the processing

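No called region, start, window or exon count changed direction under any alternative run. The counts moved a great deal, however, and the cause was not tested beyond the differing P2 replicates. Scaling to library totals called 105 regions, 189 starts, 801 windows and 8 exon genes. Offsets by level called 466, 547, 3253 and 26. A fit of the E18 and P0 libraries alone called 3520, 1021, 5294 and 568, a fit without both P2 libraries 1464, 1174, 2110 and 395, and one without E10 and P2 replicate 1 called 1654, 1130, 2349 and 567. Of these alternatives, those without both P2 libraries and with thinning were chosen after seeing the data. Thinning to equal depth called 114 regions, 37 starts, 576 windows and 9 exon genes, and of the 91 starts called with all counts 27 were called again. DESeq2 called 179 regions, 238 starts and 13 exon genes, its size factors in edgeR 29 regions, and a stricter filter (mean count 50) 343 starts and 3 exon genes. With a replicate block 58 regions, 115 starts, 20 windows and 1 exon gene were called, and replicate numbers did not pair the libraries. Leaving out 1 of the 4 libraries, with the lone sample assumed to vary like the other groups, called 2 to 7 regions, 3 to 28 starts, 0 to 12 windows and 0 exon genes. The loss was greatest without P0 replicate 1, the deeper of the P0 libraries. No call was made among the 7012 regions with the lowest counts, and the part of depth in this was not tested.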
